A study of Homo sapiens with 17 samples.

Results

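The genes described here are the integrins and the laminins, chosen by symbol as every integrin alpha, integrin beta and laminin chain gene in the deposited count table. The rule found 38 genes among 34496 rows: 18 integrin alpha genes, 8 integrin beta genes and 12 laminin genes, the last made up of 5 alpha, 4 beta and 3 gamma chains. Sequenced RNA of 10 libraries, all from human cell lines of head and neck cancer, was available. Cal27, derived from a squamous cell carcinoma of the tongue, was grown with DMSO, the solvent used as vehicle. A Cal27 line labelled as a knockout of NSD1 was grown with DMSO or with EPZ-6438. Each of these 3 groups had 2 libraries. The other 4 libraries were untreated, with 1 each of Cal27, the labelled knockout, SKN3 and BICR78, the latter being further lines of head and neck cancer. NSD1 is a methyltransferase for lysine 36 of histone H3. EPZ-6438 (tazemetostat) blocks EZH2, which acts on lysine 27 of that histone. A single labelled knockout line was measured, and whether it is a clone or a pool is not stated in the labels. Effects of the line and of NSD1 therefore cannot be told apart, and no library of Cal27 with EPZ-6438 was analysed here.

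Integrins are cell surface receptors made of an alpha and a beta chain, which bind the extracellular matrix or other cells on the outside and the cytoskeleton on the inside. Laminins are trimers of an alpha, a beta and a gamma chain and are main components of the basement membrane, the sheet on which epithelium rests. In squamous epithelium the basal cells hold on to this sheet through hemidesmosomes, in which the pair of ITGA6 and ITGB4 binds a keratinocyte laminin that holds the chains LAMA3 and LAMB3. The pair of ITGA3 and ITGB1 binds the same laminin, ITGA1 and ITGA2 form collagen receptors with ITGB1, and ITGA5, ITGAV and their partners bind fibronectin and related ligands. EZH2 is the catalytic subunit of a repressor complex known for settling on CG-rich promoters.

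The promoter stretches of 3 genes are shown because these genes had the largest changes of the group in the DMSO and inhibitor libraries. Each holds the 250 bases before a RefSeq transcription start (GRCh38.p14), written 5′ to 3′ with every CG in capitals, to show how unlike they are in CG content.
ITGA1, chr5:52787666-52787915, + strand: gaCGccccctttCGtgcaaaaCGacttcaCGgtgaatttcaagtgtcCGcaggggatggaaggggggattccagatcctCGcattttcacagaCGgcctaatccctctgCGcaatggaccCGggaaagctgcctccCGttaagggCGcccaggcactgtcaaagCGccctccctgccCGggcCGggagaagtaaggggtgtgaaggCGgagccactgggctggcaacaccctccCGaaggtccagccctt
ITGA4, chr2:181457136-181457385, + strand: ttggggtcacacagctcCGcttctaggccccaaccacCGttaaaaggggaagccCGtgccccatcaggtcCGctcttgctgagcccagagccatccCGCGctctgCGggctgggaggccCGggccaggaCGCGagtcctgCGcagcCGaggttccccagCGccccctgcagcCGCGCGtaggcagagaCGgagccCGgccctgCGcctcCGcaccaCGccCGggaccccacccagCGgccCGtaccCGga
LAMA4, chr6:112254568-112254817, - strand: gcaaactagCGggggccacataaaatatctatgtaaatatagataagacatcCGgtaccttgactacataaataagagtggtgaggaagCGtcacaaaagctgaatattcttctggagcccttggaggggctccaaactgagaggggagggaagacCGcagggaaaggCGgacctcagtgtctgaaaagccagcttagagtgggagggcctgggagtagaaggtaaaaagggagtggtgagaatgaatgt
They hold 16, 25 and 5 CG in the order shown, beside a median of 11 over the 35116 promoters of the table. The ITGA4 and LAMA4 starts lie 181 and 418 bases inside the annotated span of their genes. Of the 38 genes, 26 had at least 1 promoter in the table, and 12 had none, among them ITGA3, ITGB2, ITGB4 and LAMA1. The median was 12 CG for the 20 genes with an entry that passed the low-count filter and 2 CG for the 6 that did not, with ranges of 0 to 32 and 1 to 23 that overlap. No histone mark was analysed here, so these letters describe the starts only.

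The next 2 stretches come from chains of the keratinocyte laminin, and show in capitals the letters TGANTCA, the sequence bound by the factor AP-1.
LAMA3, chr18:23872770-23873019, + strand: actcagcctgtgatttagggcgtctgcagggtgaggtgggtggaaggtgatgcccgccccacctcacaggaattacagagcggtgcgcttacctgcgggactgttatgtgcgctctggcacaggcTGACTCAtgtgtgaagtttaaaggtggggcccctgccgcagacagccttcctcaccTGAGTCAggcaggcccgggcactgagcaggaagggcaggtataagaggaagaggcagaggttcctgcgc
LAMB3, chr1:209651375-209651624, - strand: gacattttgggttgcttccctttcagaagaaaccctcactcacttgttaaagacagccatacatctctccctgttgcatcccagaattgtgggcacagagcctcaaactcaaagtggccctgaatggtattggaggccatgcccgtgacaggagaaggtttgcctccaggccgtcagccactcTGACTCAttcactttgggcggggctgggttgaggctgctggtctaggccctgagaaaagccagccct
LAMA3 had 2 matches, TGACTCA at 125 and TGAGTCA at 69 bases before the start, and LAMB3 had 1, TGACTCA at 67 bases. The LAMA3 start lies 183567 bases inside the annotated gene and the LAMB3 start 1051 bases inside, at starts of shorter transcripts. The LAMB3 stretch was shown because it holds a match. The LAMB3 entries at the annotated gene start and 96 bases inside it had no match. Searched on both strands, TGANTCA was present in 6.57% of all promoters and in 2 of the 33 promoter entries of the 26 genes. The letters GGAATG, bound by TEAD factors, were in 11.9% of all promoters and in 4 of the 33 entries. GGGCGG, bound by SP1, was in 42.6% and in 17 of the 33 entries, from 14 genes, and each of its matches also holds a CG. A match is a description of letters and not a site of binding.

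Total counts per library ran from 11.7 to 15.5 in units of 1e6 for the 6 replicated libraries and from 17.6 to 21.7 in the 4 untreated. Levels are counts per 1e6 (CPM) after TMM scaling, over 6 libraries for the replicated groups and over all 10 for the untreated ones. They are compared between groups and not between genes, because transcript lengths were not used. No label states whether the libraries of a group came from separate cultures, so p-values reflect the spread among these libraries alone, and that spread may be technical. NSD1 itself stood at 112.6 and 113.5 CPM in Cal27, 163.6 and 161.8 CPM in the labelled knockout and 160.2 and 149.1 CPM with EPZ-6438. Its RNA was thus higher where the label says knockout, and the counts do not check that label. Untreated, NSD1 stood at 149.3 CPM in Cal27, 203.3 CPM in the labelled knockout, 78.1 CPM in SKN3 and 0.468 CPM (9 counts) in BICR78. The part of NSD1 in the values of these lines was not tested. All 8 squamous markers were detected in every group, with a summed level of 7555.3 to 7629.5 CPM in Cal27, 3425.5 to 3536.1 CPM in the labelled knockout and 2049.0 to 2063.4 CPM with EPZ-6438. Of these markers, 1 rose and 7 fell in the labelled knockout, and 2 rose and 6 fell with EPZ-6438. In such bulk RNA, fewer cells of a kind and less RNA per cell cannot be told apart, and the part of this shift in the results below was not tested.

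In the labelled knockout with DMSO, the laminin chains LAMA3, LAMA5, LAMB1, LAMB3 and LAMC1 and the integrins ITGA2, ITGA3, ITGAV and ITGB5 rose against Cal27, while ITGA1, ITGA4 and ITGA6 fell. Of the 38 genes, 24 passed the filter on low counts, and 15 of these were called in edgeR's quasi-likelihood test at an adjusted p below 0.05. That is 62.5%, beside 35.9% of the 13241 genes tested. There were 12 higher (50%, beside 16.4% of all genes) and 3 lower (12.5%, beside 19.5%). The median log2 change was 0.13 over the 24 genes and -0.006 over all genes tested. Most of the changes were small: only ITGA1 and ITGA4 changed 2-fold or more, 8.33% of the 24 beside 6.52% of all genes. Adding the untreated pair of libraries to this comparison left 9 calls, and asking for a change beyond 0.5 on the log2 scale left 4. For these 2 settings the shares over all genes are not given here.

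With EPZ-6438 the labelled knockout changed in both directions. ITGA1 rose most, with ITGA2, ITGA4, ITGA5, ITGB1, ITGB2, ITGB5, ITGB8, LAMA4 and LAMB2, and ITGA3, ITGA6, ITGAE, ITGAV, ITGB4, LAMA5, LAMB1, LAMB3 and LAMC1 fell. In all, 19 of 24 were called (79.2%, beside 49.6% of all genes tested), 10 higher (41.7%, beside 25.6%) and 9 lower (37.5%, beside 23.9%). ITGA1, ITGB2 and LAMA4 changed 2-fold or more, 12.5% beside 9.96% of all genes. The median log2 change was -0.07, beside 0.003 over all genes. Both comparisons use the DMSO libraries of the labelled knockout, so values are given side by side and no relation between them is drawn. When a change beyond 0.5 on the log2 scale was required, 5 genes were called, all 5 of them higher. The shares of all genes called under that requirement are not given here, so neither this count nor its direction is set against them.

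**Figure D1:**
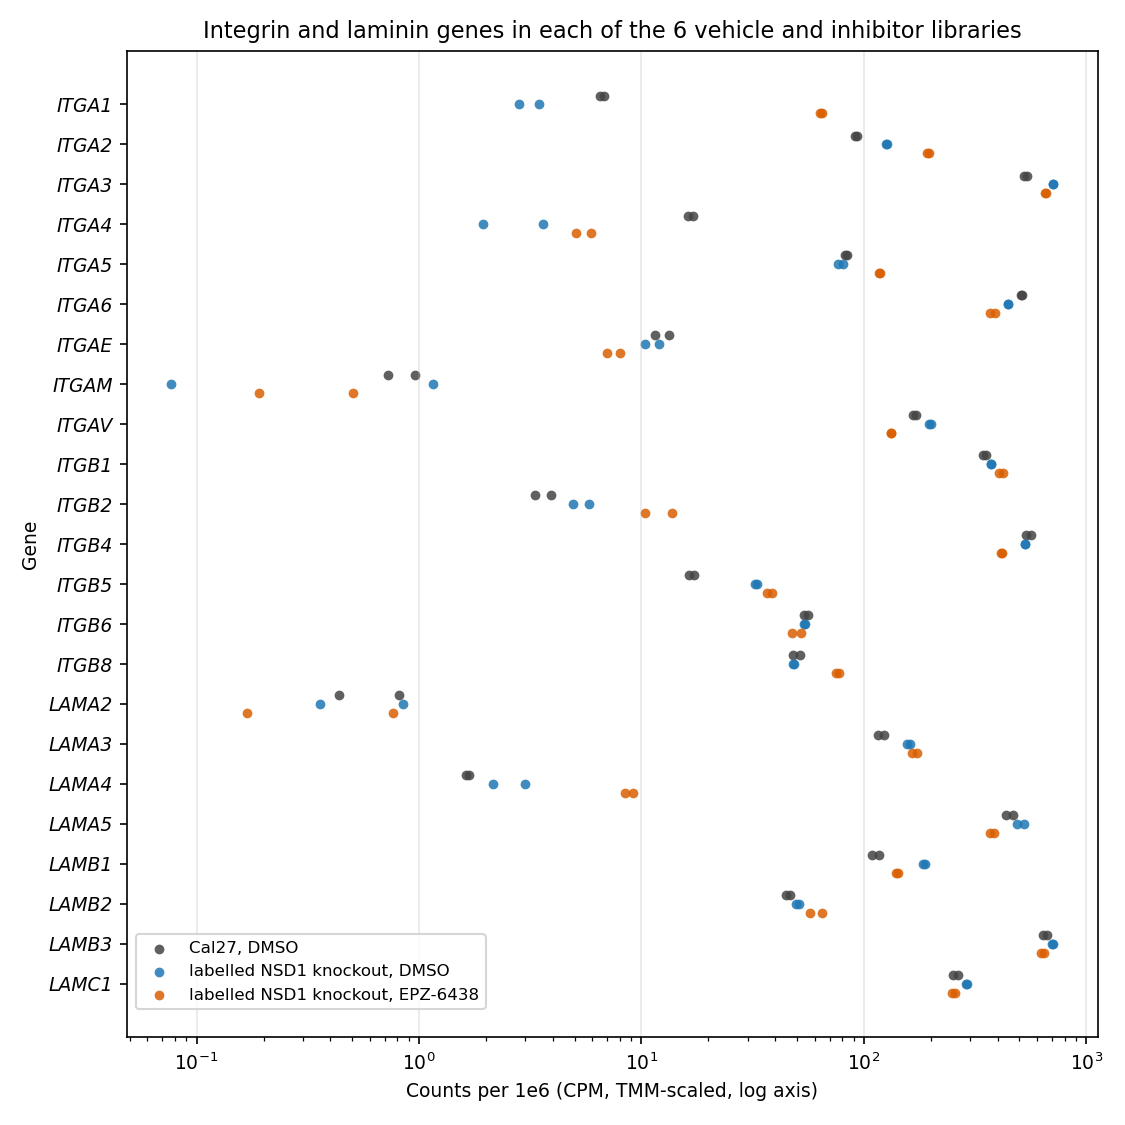
Counts per 1e6 (log axis) of tested integrin and laminin genes, 1 point per library, for Cal27 and the labelled knockout grown with DMSO and for the latter grown with EPZ-6438. The ITGA1 points with EPZ-6438, at 65.1 and 63.3 CPM, stand far to the right of the other 4, and the LAMA2 points of the 3 groups overlap.

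**Figure D2:**
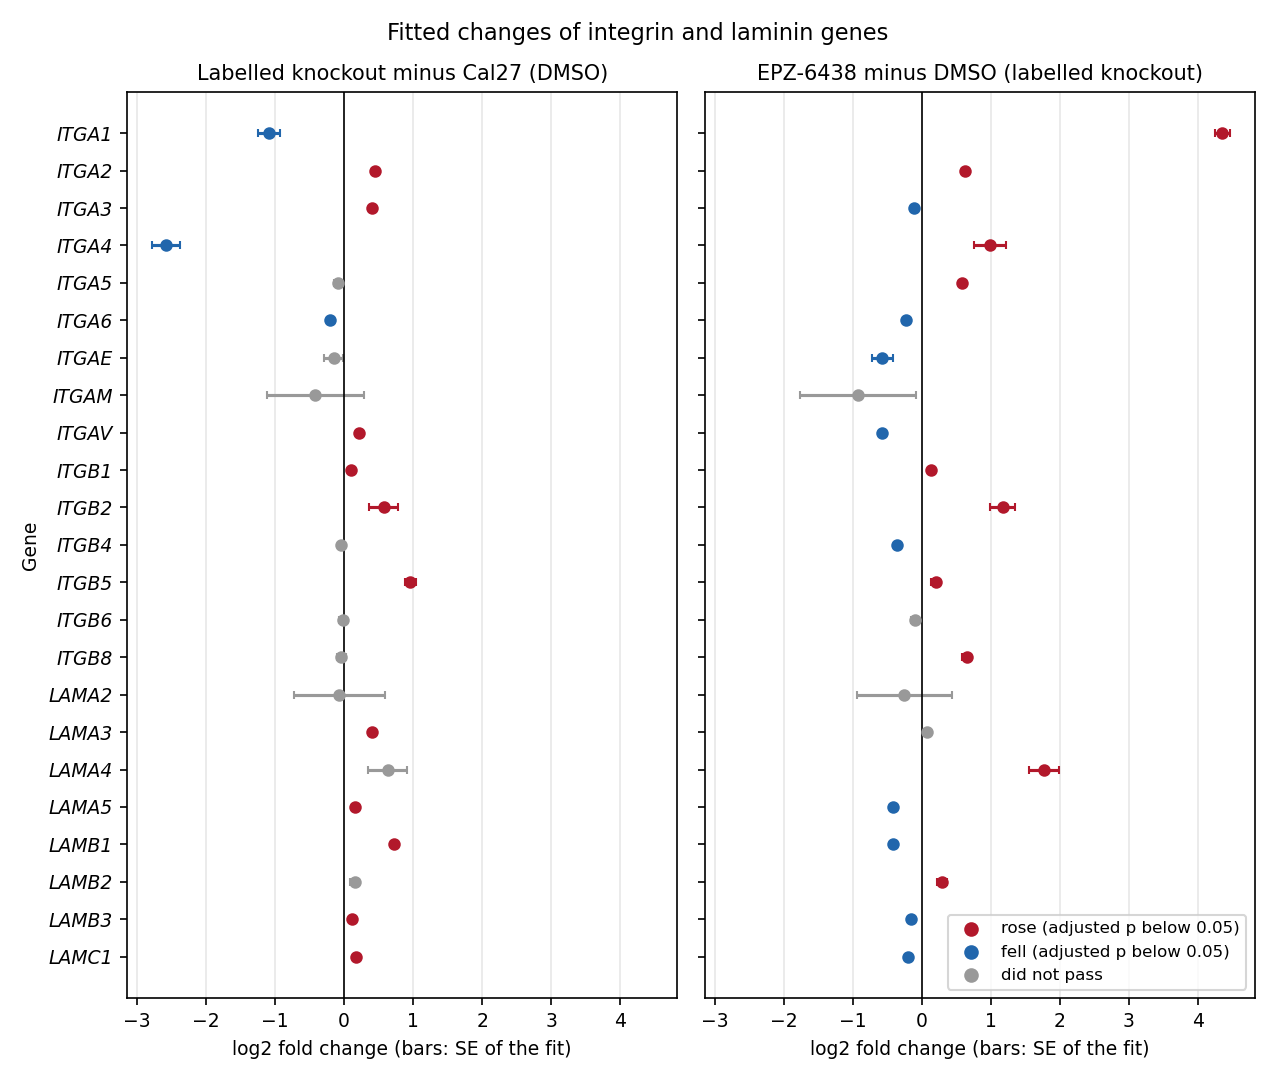
Fitted log2 changes (points) with the standard error of the fit (bars) of tested genes, for the labelled knockout against Cal27 on the left and for EPZ-6438 against DMSO on the right, on one scale. Red marks genes that rose, blue genes that fell and grey genes that did not pass an adjusted p of 0.05; ITGA4 at -2.58 on the left and ITGA1 at 4.35 on the right lie farthest from 0.

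The collagen receptor genes ITGA1 and ITGA2 are neighbours on chromosome 5, with 30.1 kb between them. ITGA1 (52787916 to 52959209, GRCh38.p14) pairs with ITGB1 to bind collagen of basement membranes. It stood at 6.78 and 6.52 CPM in Cal27, at 3.47 and 2.81 CPM in the labelled knockout and at 65.1 and 63.3 CPM with EPZ-6438. The 3 groups did not overlap: the treated libraries were highest and the labelled knockout with DMSO lowest. ITGA1 fell by 1.09 ± 0.16 (log2, SE) in the labelled knockout (edgeR, adjusted p = 5.5e-05). With EPZ-6438 it rose by 4.35 ± 0.11, or 20.5-fold (edgeR, adjusted p = 2.4e-15), the largest change among the 24 genes in either comparison. PELO, a ribosome rescue gene, lies inside the span of ITGA1, and the strand used in counting is not given in the sources used here. PELO moved by 0.22 ± 0.06 on the log2 scale with EPZ-6438, from 52.7 and 56.0 to 63.4 and 62.9 CPM.

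ITGA2, the alpha chain of the receptor for fibrillar collagen, had levels of 91.5 and 93.2 CPM in Cal27, 126.7 and 125.8 CPM in the labelled knockout and 196.7 and 192.3 CPM with EPZ-6438. Each step was upward without overlap, by 0.45 ± 0.04 (log2, SE; edgeR, adjusted p = 2.2e-07) and then by 0.62 ± 0.04 (edgeR, adjusted p = 4.9e-10). The neighbours thus moved in opposite directions in the labelled knockout and in the same direction with EPZ-6438. ITGA10 and ITGA11, which also encode collagen receptors, stayed at or below 0.667 and 0.365 CPM in these 6 libraries. ITGB1, the common beta chain, was at 343.4 and 355.1, at 372.1 and 373.9, and at 420.6 and 404.8 CPM in the same order of groups. It rose by 0.10 ± 0.03 (log2, SE) in the labelled knockout (edgeR, adjusted p = 0.023) and by 0.14 ± 0.03 with EPZ-6438 (edgeR, adjusted p = 0.00076). The first of these calls was lost, at an adjusted p of 0.18 in edgeR, without the first Cal27 library, and at 0.083 and 0.11 without the first or second library of the labelled knockout.

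Among the laminin receptors, ITGA3 rose in the labelled knockout and ITGA6 fell in both comparisons. ITGA3 levels were 541.0 and 524.6 CPM in Cal27, 710.5 and 705.6 CPM in the labelled knockout and 652.7 and 658.0 CPM with EPZ-6438. The treated libraries lay between the other 2 groups. The log2 changes were 0.41 ± 0.03 (SE; edgeR, adjusted p = 2e-09) and -0.11 ± 0.03 (edgeR, adjusted p = 0.0017). For ITGA6, which pairs with ITGB4 or ITGB1, the values were 510.8 and 507.3, then 442.6 and 443.0, then 386.9 and 368.7 CPM. It fell by 0.20 ± 0.03 and by 0.23 ± 0.03 (log2, SE; edgeR, adjusted p = 3.4e-05 and 5.9e-06). ITGB4, the hemidesmosome beta chain with a long cytoplasmic tail, stood at 563.1 and 533.2 CPM in Cal27, 527.6 and 530.6 CPM in the labelled knockout and 415.5 and 411.5 CPM with EPZ-6438. Only the second step passed the test, at -0.36 ± 0.03 (log2, SE; edgeR, adjusted p = 3.7e-08), while the first was -0.05 ± 0.03 (edgeR, adjusted p = 0.19). ITGB4 overlaps GALK1 in the annotation. ITGA7, a laminin receptor of muscle, stayed at or below 0.371 CPM in these 6 libraries.

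The fibronectin and leukocyte adhesion receptors include the strongest decrease. ITGA4, which binds fibronectin and the vascular ligand VCAM1 and is best known from leukocytes, lies on chromosome 2 (181457205 to 181538940, GRCh38.p14). It stood at 17.1 and 16.2 CPM in Cal27, at 1.93 and 3.6 CPM in the labelled knockout, and at 5.06 and 5.92 CPM with EPZ-6438, so the libraries with EPZ-6438 lay above those with DMSO and below Cal27. ITGA4 fell by 2.58 ± 0.20 (log2, SE; edgeR, adjusted p = 2.5e-08) and then rose by 0.99 ± 0.23 (edgeR, adjusted p = 0.002). The rise was 0.61 without the first DMSO library of the labelled knockout and 1.51 without the second, and it passed the test in both cases. ITGA4 overlaps CERKL in the annotation.

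ITGA5, the alpha chain of the main fibronectin receptor, had 84.3 and 81.8 CPM in Cal27, 80.1 and 76.5 CPM in the labelled knockout and 118.3 and 116.7 CPM with EPZ-6438. It rose with EPZ-6438 by 0.59 ± 0.05 (log2, SE; edgeR, adjusted p = 1.5e-08), and the first step, at -0.09 ± 0.05, did not pass (edgeR, adjusted p = 0.18). ITGB2, the beta chain of leukocyte integrins, was low at 3.94 and 3.33 CPM in Cal27, 4.93 and 5.83 CPM in the labelled knockout and 10.4 and 13.7 CPM with EPZ-6438. It rose by 0.57 ± 0.21 (log2, SE; edgeR, adjusted p = 0.046) and by 1.17 ± 0.18 (edgeR, adjusted p = 3.7e-05). The first of these is marginal: DESeq2 gave an adjusted p of 0.16, and edgeR lost the call without either Cal27 library or either DMSO library of the labelled knockout (adjusted p up to 0.24). Of the alpha chains that pair with ITGB2, ITGAL, ITGAX and ITGAD stayed at or below 0.656 CPM and ITGAM ran between 0.077 and 1.15 CPM in these 6 libraries. ITGAE, the alpha chain of an E-cadherin receptor of lymphocytes, stood at 11.5 and 13.3, at 10.4 and 12.0, and at 7.0 and 8.02 CPM. It fell with EPZ-6438 by 0.57 ± 0.15 (log2, SE; edgeR, adjusted p = 0.0038), a call lost at an adjusted p of 0.051 without the second DMSO library of the labelled knockout. ITGAE overlaps P2RX5 and HASPIN, and the strand used in counting is not given. P2RX5 also fell with EPZ-6438, by 0.31 ± 0.09 (log2, SE; edgeR, adjusted p = 0.0067), from 27.6 and 25.6 to 20.8 and 22.1 CPM. HASPIN, at -0.07 ± 0.1, did not pass (edgeR, adjusted p = 0.56). The part of these 2 overlapping genes in the ITGAE value was not tested.

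Beside these genes of leukocytes, the 11 leukocyte markers summed to 93.9 to 96.3 CPM in Cal27, 149.2 to 154.3 CPM in the labelled knockout and 152.4 to 165.4 CPM with EPZ-6438. Only 4 of the 11 were tested: CD68 and CORO1A rose in the labelled knockout, and CD14 rose and CORO1A and HCLS1 fell with EPZ-6438. CD2 was at 0 in all 3 groups, CD3E in both groups with DMSO, and SPI1 in Cal27 and with EPZ-6438. The part of these markers in the values of ITGB2, ITGA4 and ITGAE was not tested.

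The ITGAV group, whose pairs bind fibronectin, vitronectin and latent TGF-beta, split between its chains. ITGAV stood at 171.7 and 166.7 CPM in Cal27, 199.1 and 195.2 CPM in the labelled knockout and 132.6 and 132.9 CPM with EPZ-6438. It rose by 0.22 ± 0.04 (log2, SE; edgeR, adjusted p = 0.00011) and then fell by 0.57 ± 0.04 (edgeR, adjusted p = 1.2e-09), to below its level in Cal27. ITGB5, its partner in a vitronectin receptor, went from 17.3 and 16.4 CPM to 33.0 and 32.5 CPM, and to 36.6 and 38.7 CPM with EPZ-6438. That was a rise of 0.96 ± 0.08 (log2, SE; edgeR, adjusted p = 1e-07) in the labelled knockout and a further 0.20 ± 0.07 with EPZ-6438 (edgeR, adjusted p = 0.027). The second rise did not pass in DESeq2 (adjusted p = 0.17). It was also lost in edgeR without either DMSO library of the labelled knockout or the second library with EPZ-6438 (adjusted p up to 0.18).

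ITGB8, which with ITGAV activates latent TGF-beta, stood at 47.8 and 51.4 CPM in Cal27 and 48.7 and 48.0 CPM in the labelled knockout, and these groups overlapped. With EPZ-6438 it was at 77.0 and 75.0 CPM, a rise of 0.65 ± 0.06 (log2, SE; edgeR, adjusted p = 5.2e-08). ITGB6, which shares that function and is found in epithelium, passed neither test, with 53.7 and 55.8, 53.6 and 54.4, and 47.7 and 52.3 CPM. Its log2 changes were -0.02 ± 0.06 and -0.10 ± 0.06 (SE; edgeR, adjusted p = 0.83 and 0.17). ITGB3, the beta chain of platelets and of another ITGAV pair, had no count in any of the 6 libraries.

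LAMA3 and LAMB3, chains of the keratinocyte laminin, rose in the labelled knockout. LAMA3, whose promoter is shown above, stood at 123.2 and 115.5 CPM in Cal27, 156.0 and 161.1 CPM in the labelled knockout and 173.3 and 163.8 CPM with EPZ-6438. It rose by 0.41 ± 0.04 (log2, SE; edgeR, adjusted p = 1.5e-06), and the step with EPZ-6438, at 0.08 ± 0.04, did not pass (edgeR, adjusted p = 0.11). LAMB3 had 662.4 and 639.1 CPM in Cal27, 705.5 and 701.1 CPM in the labelled knockout and 622.6 and 643.8 CPM with EPZ-6438. LAMB3 rose by 0.11 ± 0.03 (log2, SE; edgeR, adjusted p = 0.004) and fell by 0.15 ± 0.03 (edgeR, adjusted p = 0.00023). The first of these was lost, at an adjusted p of 0.069 in edgeR, without the second Cal27 library.

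LAMA5, LAMB1 and LAMC1, chains of laminins found in most basement membranes, rose in the labelled knockout and fell with EPZ-6438. LAMB1 stood at 116.6 and 109.1 CPM in Cal27, 188.5 and 184.1 CPM in the labelled knockout and 138.8 and 141.9 CPM with EPZ-6438. Those are log2 changes of 0.72 ± 0.04 and -0.41 ± 0.04 (SE; edgeR, adjusted p = 4.4e-10 and 2.7e-07), and the treated libraries stayed above Cal27. LAMA5 had 468.0 and 434.0, 521.3 and 486.3, and 366.8 and 383.5 CPM, so its treated libraries lay below Cal27. It rose by 0.16 ± 0.04 (log2, SE; edgeR, adjusted p = 0.0037) and fell by 0.42 ± 0.04 (edgeR, adjusted p = 1.2e-07). The rise in LAMA5 was lost, at adjusted p of 0.08 and 0.091 in edgeR, without the second Cal27 library or the first library of the labelled knockout. LAMC1 had 251.2 and 263.5, 288.4 and 291.3, and 256.2 and 249.0 CPM. It rose by 0.17 ± 0.03 (log2, SE; edgeR, adjusted p = 0.00058) and fell by 0.20 ± 0.03 (edgeR, adjusted p = 9e-05), to a range that overlapped Cal27.

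LAMA4 and LAMB2 rose with EPZ-6438. LAMA4 (chromosome 6, 112107931 to 112254985, GRCh38.p14), a chain of vessel and muscle basement membranes, was low in Cal27, at 1.68 and 1.63 CPM, and stood at 3.0 and 2.16 CPM in the labelled knockout. With EPZ-6438 it reached 8.43 and 9.16 CPM, a rise of 1.77 ± 0.22 or 3.42-fold (log2, SE; edgeR, adjusted p = 3.5e-06). The first step, 0.63 ± 0.28, did not pass (edgeR, adjusted p = 0.085), although the libraries did not overlap. LAMB2 had 46.5 and 44.4, 49.3 and 51.3, and 57.2 and 65.0 CPM. Its rise with EPZ-6438 was 0.29 ± 0.07 (log2, SE; edgeR, adjusted p = 0.0016), which came to 0.18 and lost its call (edgeR, adjusted p = 0.061) without the second library with EPZ-6438, and its first step, 0.15 ± 0.07, did not pass (edgeR, adjusted p = 0.11).

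ITGA1 and LAMA4 are also genes of fibroblasts, vessels and muscle, whose markers were low but moved. The 8 fibroblast markers summed to 19.0 to 20.6 CPM in Cal27, 7.42 to 9.86 CPM in the labelled knockout and 21.2 to 25.0 CPM with EPZ-6438. Of these, 5 were tested: COL1A1, COL1A2 and LUM fell in the labelled knockout, and COL1A1, COL1A2, COL3A1 and PDGFRB rose with EPZ-6438. THY1 was at 0 in both groups of the labelled knockout and PDGFRA in the one with DMSO. The 6 endothelial markers summed to 17.3 to 17.4, 20.5 to 22.9 and 26.3 to 28.8 CPM, with 3 tested: CDH5 rose and PECAM1 and VWF fell in the labelled knockout, and PECAM1 rose with EPZ-6438. Most of each sum was CDH5, at means of 15.0, 21.1 and 24.6 CPM, while VWF had means of 1.4, 0.229 and 0.359 CPM. The 6 muscle and Schwann cell markers summed to 3.63 to 4.08, 3.67 to 3.85 and 6.93 to 8.26 CPM. MYOD1 was at 0 in all 3 groups, and of 3 tested only ACTA2 was called, lower in the labelled knockout and higher with EPZ-6438. The 5 platelet markers, none of them tested, did not exceed a sum of 2.02 CPM in any library. The part of these markers in the values of ITGA1 and LAMA4 was not tested.

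When the EPZ-6438 libraries of the labelled knockout were compared directly with Cal27, there were 19 of 24 genes called (79.2%, beside 52% of all genes tested). There were 13 higher (54.2%, beside 26.1%) and 6 lower (25%, beside 25.9%), with a median log2 change of 0.26 beside 0.004 over all genes. The 6 genes changed 2-fold or more (25%, beside 8.65%) were ITGA1, ITGA2, ITGA4, ITGB2, ITGB5 and LAMA4. ITGA1 was higher by 3.27 ± 0.09 (log2, SE; edgeR, adjusted p = 2.1e-14), LAMA4 by 2.41 ± 0.23 (edgeR, adjusted p = 1.7e-07) and ITGB2 by 1.74 ± 0.19 (edgeR, adjusted p = 7e-07). ITGB5 was higher by 1.16 ± 0.08 and ITGA2 by 1.07 ± 0.04 on the same scale. ITGA4 was lower, at -1.59 ± 0.18 (log2, SE; edgeR, adjusted p = 8.9e-07).

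Of the smaller differences from Cal27, the genes lower were ITGAE (log2 -0.72 ± 0.14), ITGA6 (-0.43 ± 0.03), ITGB4 (-0.41 ± 0.03), ITGAV (-0.35 ± 0.04) and LAMA5 (-0.26 ± 0.04). Those higher were ITGB8 (0.61 ± 0.06), ITGA5 (0.50 ± 0.05), LAMA3 (0.50 ± 0.04), LAMB2 (0.43 ± 0.07), LAMB1 (0.32 ± 0.04), ITGA3 (0.30 ± 0.03) and ITGB1 (0.24 ± 0.03). Both chains of the hemidesmosome integrin were therefore lower than in Cal27, and LAMA3 was higher. LAMB3 and LAMC1 lay at -0.04 ± 0.03 and -0.03 ± 0.03 and did not pass (edgeR, adjusted p = 0.26 and 0.52), with libraries that overlapped those of Cal27. This comparison shares its libraries with both others.

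The untreated pair gave a second view of the labelled knockout, with 1 library a side and so no test within it. Past 2-fold, with at least 20 counts in 1 library, lay 7 of 24 genes (29.2%, beside 15% of all genes compared). ITGA2B, ITGAM, ITGB2 and LAMA4 were higher (16.7%, beside 5.86%), and ITGA4, ITGA6 and ITGB4 were lower (12.5%, beside 9.15%). ITGA2B and ITGAM met the minimum of 20 counts only in the labelled knockout, and ITGA4 only in Cal27, so the minimum itself favours their direction. ITGA2B had 20 counts against 8 in Cal27, a ratio of 2.38 (95% interval 1.01 to 6.26). ITGAM had 86 against 16, a ratio of 5.13 (2.98 to 9.37). ITGA4 had 280 counts in Cal27, or 13.3 CPM (95% Poisson interval 11.8 to 15.0), and 0 counts in the labelled knockout. Set against a floor of 3 counts in the knockout library (0.136 CPM), it was at least 97.8-fold lower. ITGA6 stood at 831.7 CPM (819.4 to 844.1) in Cal27 and 174.4 CPM (169.0 to 180.0) in the labelled knockout, and ITGB4 at 1009.4 CPM (995.8 to 1023.1) and 446.5 CPM (437.7 to 455.4). LAMA4 stood at 3.14 CPM (2.43 to 4.0) and 22.9 CPM (20.9 to 25.0), a 7.28-fold ratio (5.63 to 9.56). These intervals cover counting error only. The 6 endothelial markers summed to 5.66 CPM in untreated Cal27 and 86.5 CPM in the untreated labelled knockout, with KDR and CLDN5 at 0 in both. Nearly all of that gap was CDH5, an adhesion gene of vessels, at 2.86 and 86.1 CPM. VWF went the other way, from 2.66 to 0.136 CPM, as did TIE1, from 0.143 CPM to 0. The part of these markers in the LAMA4 value was not tested.

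Of the 15 genes called with DMSO, 11 had the same sign in the untreated pair and 4 the other sign. The 4 were ITGA1, ITGA3, ITGAV and LAMA5. With the untreated pair added to the fit, these 4 and ITGA6, ITGB1 and LAMB3 lost their calls and LAMA4 gained one, at 1.68 (log2; edgeR, adjusted p = 0.042). The difference between the changes of the 2 sets was tested in edgeR over 8 libraries, a test added after the data were seen, in which each lone untreated library is assumed to vary like the rest. No untreated group has a replicate, so nothing in these data checks that assumption, and its calls describe these libraries. It called 18 of 24 genes, beside 29.8% of all genes tested. ITGA6 lay at -2.25 (log2) in the untreated pair and -0.20 with DMSO, ITGB4 at -1.18 and -0.05, and LAMA4 at 2.82 and 0.63, all 3 among those called. LAMB1 and ITGB5 were among the 6 not called, with 0.57 and 0.72 for LAMB1 and 0.73 and 0.96 for ITGB5. Treatment set, library batch and depth cannot be told apart between these sets. The squamous markers summed to 23775.8 CPM in untreated Cal27 and 3576.6 CPM in the untreated labelled knockout, a wider gap than with DMSO.

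**Figure D3:**
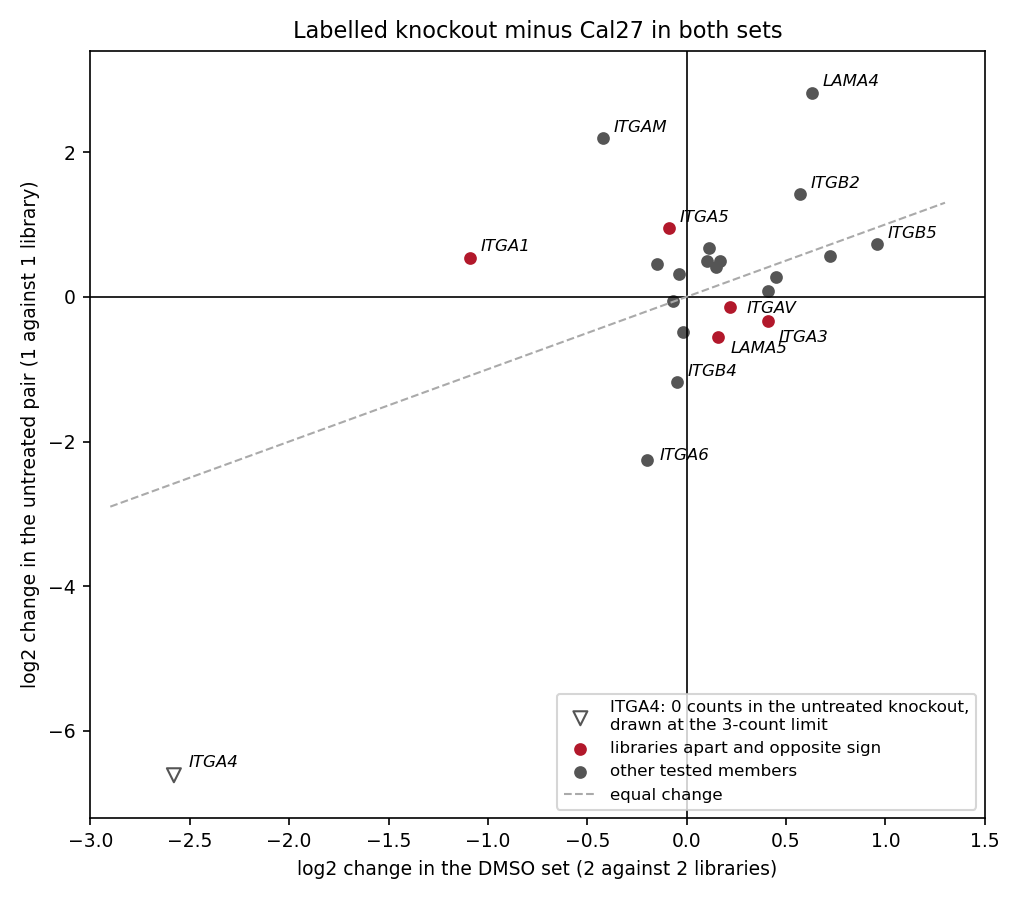
Log2 change of the labelled knockout against Cal27 with DMSO (x axis, 2 libraries against 2) and in the untreated pair (y axis, 1 against 1) for tested genes. Red points mark 5 genes with opposite signs whose DMSO libraries did not overlap, the dashed line marks equal change, and the open triangle draws ITGA4 at its 3-count limit; ITGA6 and ITGB4 lie far below the line.

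The 2 other untreated lines differed from Cal27 in more of these genes, again with 1 library each and no test. In SKN3, 17 of 28 genes with enough counts lay past 2-fold (60.7%, beside 41% of all genes compared), 12 higher (42.9%, beside 21.3%) and 5 lower (17.9%, beside 19.6%). In BICR78 the count was 12 of 26 (46.2%, beside 28%), with 10 higher (38.5%, beside 17.8%) and 2 lower (7.69%, beside 10.2%). Enough counts means at least 20 in 1 of the 2 libraries, for these and for all genes. ITGA2B, ITGAM, ITGAX, ITGB7, LAMA1 and LAMB4 passed through SKN3 alone, and ITGB7 and LAMA1 through BICR78 alone. LAMA4, lower in both, passed through Cal27 alone. For such genes the minimum itself favours the direction seen. Beside these counts, the squamous markers summed to 23775.8 CPM in Cal27, 5394.9 CPM in SKN3 and 12403.3 CPM in BICR78. The fibroblast markers summed to 26.6, 46.5 and 55.6 CPM, with PDGFRA at 0 in SKN3 and THY1 at 0 in Cal27 and BICR78, and the part of either list in these differences was not tested. LAMA1 (chromosome 18, 6941742 to 7117797, GRCh38.p14), a chain of embryonic basement membranes, differed most. It stood at 0.428 CPM (95% Poisson interval 0.196 to 0.813) in Cal27 and 0.363 CPM (0.157 to 0.716) in the labelled knockout, against 262.4 CPM (255.2 to 269.8) in SKN3 and 80.2 CPM (76.3 to 84.3) in BICR78. The ratio to Cal27 was 612.7 (322.5 to 1340.7) in SKN3 and 187.3 (98.4 to 410.3) in BICR78. ITGB7, a beta chain of lymphocyte integrins that pairs with ITGA4 and ITGAE, stood at 0.286 CPM (0.105 to 0.621) in Cal27, 8.49 CPM (7.23 to 9.9) in SKN3 and 13.0 CPM (11.5 to 14.8) in BICR78. The leukocyte markers summed to 91.8, 92.0 and 74.7 CPM in these 3 lines, with CD2 at 0 in each, but the genes behind the sums differed. CD68 stood at 56.8, 7.43 and 29.7 CPM and HCLS1 at 14.0, 71.7 and 1.51 CPM in Cal27, SKN3 and BICR78. CD3E and TYROBP, at 0 in Cal27 and BICR78, stood at 1.53 and 0.685 CPM in SKN3. Their part in the ITGB7 value was not tested. ITGB7 overlaps ZNF740 in the annotation.

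ITGA4, the partner of ITGB7, was also higher in both lines, at 27.1 CPM (24.8 to 29.5) in SKN3 and 57.0 CPM (53.7 to 60.5) in BICR78. ITGA1 was high in BICR78 only, at 51.3 CPM (48.1 to 54.6) against 3.9 CPM (3.1 to 4.84) in Cal27 and 2.53 CPM (1.87 to 3.35) in SKN3. LAMC1 stood at 722.7 CPM (710.7 to 734.9) in SKN3 and 703.4 CPM (691.6 to 715.3) in BICR78, against 205.8 CPM (199.7 to 212.0) in Cal27. ITGAV was highest in SKN3, at 486.7 CPM (476.8 to 496.7) against 129.9 CPM (125.0 to 134.8) in Cal27 and 133.8 CPM (128.7 to 139.1) in BICR78. ITGB8 was 2.67-fold (2.53 to 2.83) and 2.22-fold (2.09 to 2.35) the Cal27 level in SKN3 and BICR78. LAMB1 was 2.78-fold (2.64 to 2.93) the Cal27 level in BICR78 and 0.98-fold (0.918 to 1.05) in SKN3. LAMA3 stood at 294.9 CPM (287.3 to 302.7) in BICR78, against 138.0 CPM (133.1 to 143.2) in Cal27 and 174.8 CPM (168.9 to 180.8) in SKN3.

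Genes below Cal27 included ITGA3, at 198.1 CPM (191.8 to 204.5) in SKN3 against 814.5 CPM (802.3 to 826.8) in Cal27, and LAMA5, at 280.7 CPM (273.2 to 288.3) against 1001.8 CPM (988.3 to 1015.4). In BICR78 LAMA5 stood at 1063.8 CPM (1049.2 to 1078.4), above Cal27. LAMA4 was lower in both lines, by 5.42-fold (2.84 to 11.4) in SKN3 and 4.32-fold (2.4 to 8.32) in BICR78. ITGA2 was 2.22-fold (2.07 to 2.39) lower in SKN3 and 2.44-fold (2.33 to 2.56) higher in BICR78. ITGB6 was 2.37-fold (2.13 to 2.64) lower in BICR78 and 1.42-fold (1.31 to 1.53) higher in SKN3. The hemidesmosome pair differed little: ITGA6 stood at 745.3 and 815.7 CPM and ITGB4 at 956.9 and 870.4 CPM in SKN3 and BICR78, beside 831.7 and 1009.4 CPM in Cal27.

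**Figure D4:**
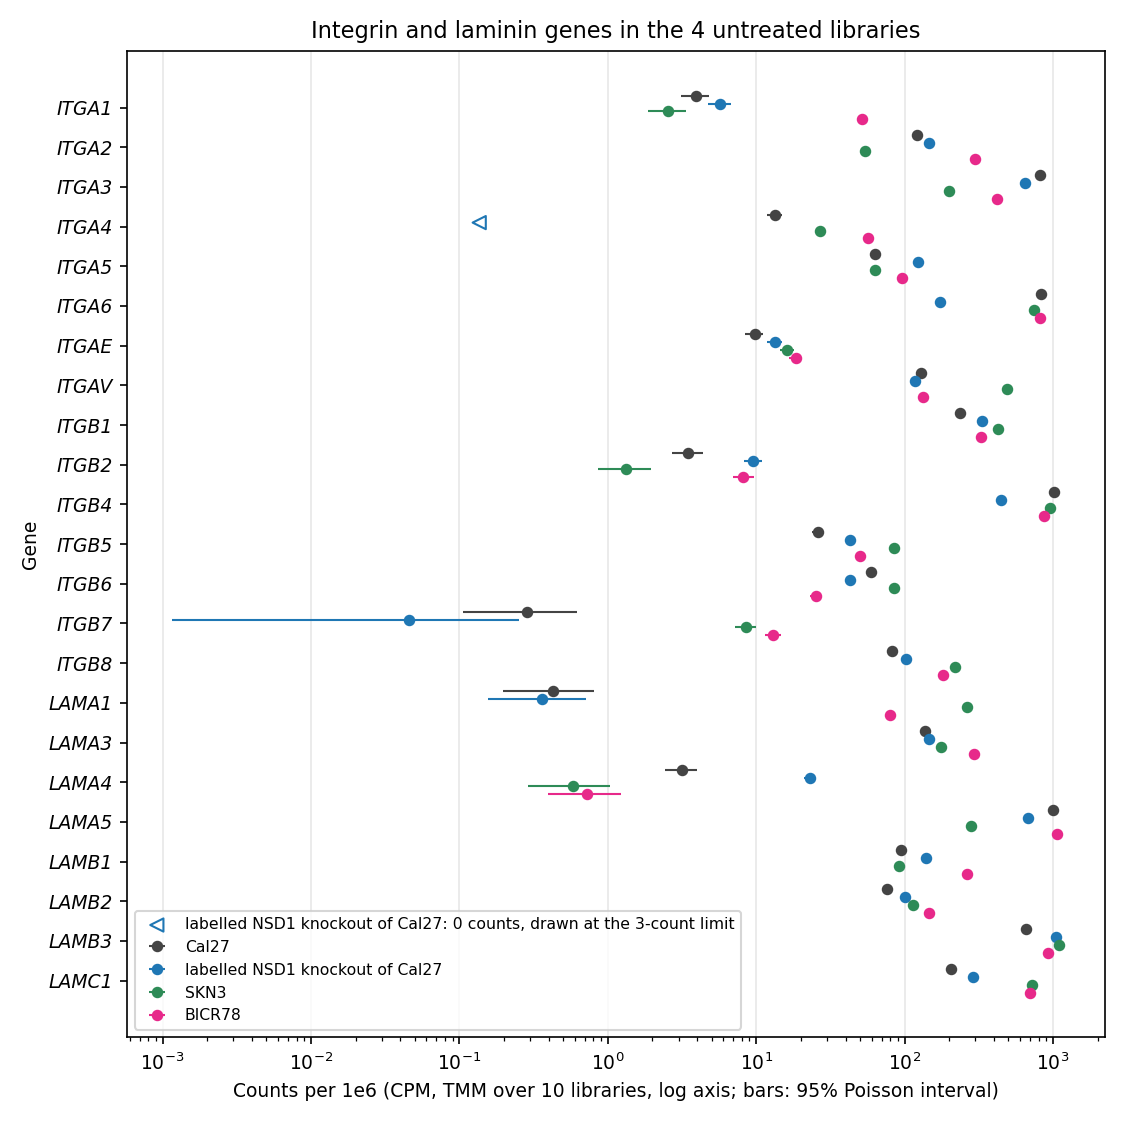
Counts per 1e6 (log axis, TMM over all 10 libraries) with 95% Poisson intervals in the 4 untreated libraries, 1 point per line. LAMA1 and ITGB7 separate SKN3 and BICR78 from both Cal27 lines, and the open triangle marks the 0 counts of ITGA4 in the labelled knockout at the 3-count limit.

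Another 14 genes did not pass the filter on low counts in the DMSO and inhibitor libraries and were not tested there. They were ITGA2B, ITGA7, ITGA8, ITGA9, ITGA10, ITGA11, ITGAD, ITGAL, ITGAX, ITGB3, ITGB7, LAMA1, LAMB4 and LAMC3, and none exceeded 0.77 CPM there, the level of ITGA2B in 1 library of the labelled knockout. ITGB3 had no count in untreated Cal27 either, which allows up to 0.176 CPM (upper 95% Poisson limit), and stood at 0.104 CPM (0.0126 to 0.376) in BICR78. LAMB4, which lies 8.5 kb from LAMB1, stayed at or below 0.296 CPM in the DMSO and inhibitor libraries and stood at 1.11 CPM (0.685 to 1.69) in SKN3. Of the tested genes, ITGAM and LAMA2 were at similar depth, and were called in no comparison of the DMSO and inhibitor libraries. ITGAM log2 changes were -0.42 ± 0.70 and -0.92 ± 0.84 and those of LAMA2 were -0.07 ± 0.66 and -0.25 ± 0.69 (SE), errors too wide to show a change of 2-fold. In the untreated pair ITGAM stood at 0.761 CPM (0.435 to 1.24) in Cal27 and 3.9 CPM (3.12 to 4.82) in the labelled knockout, and ITGA2B at 0.381 CPM (0.164 to 0.75) and 0.908 CPM (0.555 to 1.4).

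Genes that work with these receptors were counted from 4 fixed lists. Of 10 genes of hemidesmosomes and other laminin receptors, all tested, 4 rose (40%) and 1 fell (10%) in the labelled knockout, with a median log2 of 0.07, beside 16.4% higher, 19.5% lower and a median of -0.006 over all genes. With EPZ-6438, 1 rose (10%) and 6 fell (60%), with a median of -0.25, beside 25.6% higher, 23.9% lower and a median of 0.003 over all genes. PLEC, the plectin that ties ITGB4 to keratin, stood at 475.2 and 448.4, 471.4 and 456.7, and 321.1 and 314.2 CPM. It fell with EPZ-6438 by 0.55 ± 0.03 (log2, SE; edgeR, adjusted p = 4.8e-10). SDC1, a laminin-binding syndecan, fell with EPZ-6438 by 0.48 ± 0.03, while SDC4, a syndecan of focal adhesions, rose by 0.25 ± 0.03 in the labelled knockout and by 0.46 ± 0.03 with EPZ-6438. RPSA, a ribosomal protein also described as a laminin receptor, fell by 0.80 ± 0.03 and 0.34 ± 0.03, a value made uncertain by its many pseudogene copies. COL17A1, the collagen of hemidesmosomes, fell with EPZ-6438 by 0.35 ± 0.09 (log2, SE; edgeR, adjusted p = 0.0056). Its level differed greatly between the sets, at 28.0 CPM with DMSO and 1072.7 CPM untreated in Cal27 and 29.7 and 487.7 CPM in the labelled knockout (TMM over 10 libraries). No integrin or laminin gene differed 4-fold in the same direction in both lines between the sets. In the labelled knockout alone, some differed by more than 4-fold. ITGA4 stood there at 2.8 CPM with DMSO and 0.0 CPM untreated, LAMA4 at 2.61 and 22.9 CPM, and ITGAM at 0.623 and 3.9 CPM.

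Among 33 tested adaptors of focal adhesions, the sites where integrins join the cytoskeleton, 8 rose (24.2%, beside 16.4% of all genes) and 10 fell (30.3%, beside 19.5%) in the labelled knockout, with a median log2 of -0.04. With EPZ-6438, 6 rose (18.2%, beside 25.6%) and 14 fell (42.4%, beside 23.9%), with a median of -0.12. The membrane scaffold gene CAV1 went from 2455.6 and 2529.8 CPM to 2106.0 and 2123.6 CPM, and to 802.0 and 799.1 CPM with EPZ-6438. CAV1 fell by 0.24 ± 0.02 and by 1.40 ± 0.02 (log2, SE; edgeR, adjusted p = 3.1e-07 and 1.1e-17). The actin crosslinkers FLNA and ACTN1 fell with EPZ-6438 by 0.67 ± 0.03 and 0.58 ± 0.03, after a fall of 0.13 ± 0.03 in FLNA and a rise of 0.39 ± 0.03 in ACTN1 in the labelled knockout. The tensin gene TNS3 fell by 0.33 ± 0.03 in the labelled knockout and rose by 0.49 ± 0.03 with EPZ-6438.

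Of 24 tested genes of basement membrane and other integrin ligands, 10 rose (41.7%, beside 16.4% of all genes) and 5 fell (20.8%, beside 19.5%) in the labelled knockout, with a median log2 of 0.11. With EPZ-6438, 13 rose (54.2%, beside 25.6%) and 6 fell (25%, beside 23.9%), with a median of 0.24. The shares that fell lay near those over all genes. THBS1, a thrombospondin bound by several integrins, stood at 1158.9 and 1154.1 CPM in Cal27, 2192.1 and 2186.2 CPM in the labelled knockout and 338.9 and 339.3 CPM with EPZ-6438. THBS1 rose by 0.92 ± 0.02 and fell by 2.69 ± 0.02 (log2, SE; edgeR, adjusted p = 3.5e-15 and 4.8e-21). CCN1, a matrix protein bound by ITGAV pairs, rose by 1.08 ± 0.03 and fell by 0.73 ± 0.03, and COL4A2, a basement membrane collagen, rose by 0.87 ± 0.03 and fell by 0.31 ± 0.03. ICAM1, the ligand of ITGB2 integrins, rose in both steps, by 0.93 ± 0.03 and 0.27 ± 0.03. Of 14 membrane partners of integrins, 4 rose (28.6%, beside 16.4%) and 5 fell (35.7%, beside 19.5%) in the labelled knockout, with a median of -0.04. With EPZ-6438, 4 rose (28.6%, beside 25.6%) and 4 fell (28.6%, beside 23.9%), shares near those over all genes, with a median of -0.03. SLC3A2, an amino acid transporter chain that binds ITGB1, fell by 0.63 ± 0.03 and 0.56 ± 0.03. The tetraspanin gene CD9 fell by 0.61 ± 0.04 in the labelled knockout, and LGALS3BP, a galectin-binding protein, rose by 0.56 ± 0.03 with EPZ-6438.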

How the data were processed

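RNA was measured in 10 libraries, taken up in TRIzol and depleted of ribosomal RNA, per the labels' protocols. Values are the raw read counts per gene that the authors deposited; every column was matched to a sample by its title. The submitters' processing notes name hg38 as build and, as tools, HISAT2 2.1.0, Picard 2.23.1, featureCounts 1.6.1 and CASAVA 1.7. What each tool did, the annotation and the strand setting were not given in the sources used here. Another 7 samples, of CUT&Tag, were not analysed here.

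One model held the 6 DMSO and inhibitor libraries, after edgeR's own filter on low counts and TMM scaling, with no term but group (edgeR 4.0.16 under R 4.3.3). Quasi-likelihood F tests were adjusted by Benjamini-Hochberg over 13241 genes and called at 0.05; "rose" and "fell" mean called. Changes are log2 fold changes with standard errors. Single libraries were compared on log2 CPM with a prior count of 2, with exact 95% Poisson intervals and a floor of 3 counts. The test was first run on simulated data, where false calls exceeded the nominal share. Replicates differed beyond sampling noise and were kept apart. Positions and promoters are RefSeq's (GRCh38.p14).

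The genes, lists and tests were chosen with earlier results of these data known. The counts cover all 38 genes, of which 1 is not reported here by itself; per-library values are given for genes called in either of the first 2 comparisons that reached 5 CPM in a group, up to 20 (and for ITGB6 and NSD1), and up to 4 genes per list by lowest adjusted p, with COL17A1 and PELO added after their values were seen. P2RX5 and HASPIN were likewise added after their values were seen. Alternatives were DESeq2 1.42.0, other scalings and filters, a robust fit, 2-group fits, a test against a log2 fold of 0.5, a replicate block and leaving out each library.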

Additional observations from a re-analysis of the deposited data

Results flagged for a closer look

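The change of the labelled knockout against Cal27 had opposite signs in the untreated pair and in the DMSO libraries, with no overlap between the DMSO libraries of the 2 lines, for 5 genes. An edgeR test of the difference, added after the data were seen, gave adjusted p from 5.5e-09 to 0.00033 for these 5. The untreated value rests on 1 library a side, so these p-values take the spread of the replicated libraries for the lone ones, which nothing here checks. ITGA1 lay at 0.54 (log2) in the untreated pair and fell by 1.09 with DMSO. ITGA3, a laminin receptor chain, lay at -0.33 untreated and rose by 0.41 with DMSO. ITGA5 lay at 0.95 untreated and at -0.09 with DMSO, where it was not called. ITGAV lay at -0.14 untreated and rose by 0.22 with DMSO. LAMA5 lay at -0.55 untreated and rose by 0.16 with DMSO. ITGB8 (0.32 and -0.04), ITGAM (2.19 and -0.42) and ITGAE (0.45 and -0.15) also had opposite signs, but their DMSO libraries overlapped between the lines.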

How the results depend on the processing

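Over all alternatives, 1010 single-gene checks kept direction and side of the threshold, 62 lost the call, 3 gained one and 21 changed sign. Against a log2 fold of 0.5, calls came to 4 (2 higher) in the labelled knockout and 6 (5 higher, 1 lower) for EPZ-6438 against Cal27. For EPZ-6438 against DMSO they came to 5 (5 higher, 0 lower, with 1 lower at an unadjusted p below 0.05). A larger minimum change was required there, and the shares over all genes under it are not given here. Without that minimum, edgeR and DESeq2 each called 9 lower with EPZ-6438. With the untreated pair added, 9 genes were called in the labelled knockout, 1 of them lower. ITGA5 then lay at 0.27, ITGAE at 0.06, ITGAM at 0.79, ITGB8 at 0.09 and LAMA5 at -0.08, all of the other sign; the cause was not tested. With at least 100 counts, 11 genes lay past 2-fold in SKN3, beside 17 with at least 20. ITGA2B, ITGAM, ITGAX, ITGB2, LAMA4 and LAMB4 were past 2-fold but fell under the larger minimum. ITGA1, which was not past 2-fold, fell under it too. The share over all genes at the larger minimum is not given here. Library size alone moved the median of all genes in the labelled knockout from -0.006 to 0.045 and its split from 2169 higher and 2580 lower to 2978 and 2088. It turned ITGB4 (0.00), ITGB6 (0.03) and ITGB8 (0.01) there, and LAMB3 (0.01) and LAMC1 (0.03) for EPZ-6438 against Cal27, none of them called.

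Leaving out each library in turn gave 12 to 15 calls (9 to 12 higher, 3 lower) in the labelled knockout, 17 to 19 (8 to 10 higher, 8 to 9 lower) with EPZ-6438 and 19 to 20 for EPZ-6438 against Cal27. Signs changed only for uncalled genes. In the labelled knockout ITGAM ran from -3.31 to 0.44, ITGB6 from -0.05 to 0.01, ITGB8 from -0.09 to 0.01 and LAMA2 from -0.78 to 0.44. With EPZ-6438 ITGAM ran from -1.78 to 1.97 and LAMA2 from -1.77 to 0.46, and against Cal27 LAMA2 from -1.83 to 0.29 and LAMC1 from -0.06 to 0.00. Same-numbered libraries showed no shared deviation (r = 0.014, -0.044 and 0.0035 across genes), which cannot show whether they were made together. A replicate block changed 1 call, ITGB2 in the labelled knockout (log2 0.56, edgeR adjusted p = 0.053). Depth limits what can be said of genes under 1 CPM, and 2 libraries a group leave 3 residual degrees of freedom.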
